A study of Bos taurus with 20 samples.

Results

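The genes described here make, receive and break down prostaglandins in the bovine ovarian follicle. They are 8 genes out of the 22617 genes or transcripts on the array, chosen by name: the cyclooxygenases PTGS1 and PTGS2, the terminal synthases PTGES and PTGIS, the receptors PTGER2, PTGER4 and PTGFR, and the degrading enzyme HPGD. By the gene name printed in the array annotation, 6 of the 8 were found. PTGS2, listed there as PGHS-2, and PTGFR, listed as FP, were matched through their RefSeq accessions. Expression was measured on 20 one-color arrays of Bos taurus RNA, 4 for each of 5 groups: theca (TH), granulosa (GC) and cumulus (CC) cells, oocytes (OO), and cumulus cells detached when in vitro maturation had run for 4 h (CC after IVM; the sources used here do not give the medium). All came from antral follicles of 3 to 6 mm in slaughterhouse ovaries, without a genetic change or drug given in the labels. The first 4 groups are labelled immature, and the fifth is the only group labelled with culture. TH had been scraped from the follicular wall, a tissue that also holds blood vessels, and the labels do not say how many animals entered a sample. The 4 replicates of a group are called biological by the study but are not tied to animals. The p-values therefore set group differences against the spread between these samples, which may not be the spread between animals.

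Prostaglandins are local lipid hormones. Phospholipases free arachidonic acid from membranes, the cyclooxygenases PTGS1 (the form usually present all the time) and PTGS2 (the inducible form) convert it to prostaglandin H2, and terminal synthases turn this common precursor into the active forms. PTGES makes prostaglandin E2 and PTGIS makes prostacyclin, a vasodilator typical of vessel walls. PTGER2 and PTGER4 are receptors for prostaglandin E2 that raise cyclic AMP, PTGFR is the receptor for prostaglandin F2 alpha, and HPGD starts the breakdown of prostaglandins. In the ovary the luteinizing hormone surge induces PTGS2 in granulosa cells, and prostaglandin E2 is known for its part in ovulation and in the expansion of the cumulus.

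Each member was read by designed 60-base probes, 2 per transcript and 18 in all. The probes below are those behind the levels that need care, shown as bases 1 to 30 of each probe from its 5′ end. Capitals mark the part of the printed stretch that lies in the longest run shared by both probes of a transcript, where that run had at least 20 bases. Both PTGES probes shared a run of 48 identical bases. Aligned at an offset of 2 bases, they differed at 1 position before that run, C12A. Positions are counted from 1 at the 5′ end of PTGES probe 1, whose base is given first. Probes of PTGS2 and of HPGD shared no run longer than 6 bases, so they were separate readings of the transcript. PTGFR had probes for a transcript named FP-201 and for another named FP-202.
PTGS2 probe 1: cactgaaaatcagtatttatgtaaataatt
PTGS2 probe 2: ctgaatctgggaatttggaatatatgagtg
PTGES probe 1: ggttttggaaccTAACGACCTTCTGAATCC
PTGES probe 2: ttttggaacaTAACGACCTTCTGAATCCAG
HPGD probe 1: ggagaagtctttgtactggtggccttcact
HPGD probe 2: gtctagatgtccacatacttgaaaaacacc
PTGFR probe 1 (FP-201): CCATCAGAGTAACTGAATTTCCCTTCTCAT
PTGFR probe 3 (FP-202): tCTTCCAAAGCCTGTACTACCAATGTCAAG

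On UMD 3.1 the files place the transcripts of PTGS1 at chr11:93219287-93245045, PTGS2 at chr16:69263776-69271399, PTGES at chr11:100143653-100155090, PTGER2 at chr10:11773706-11786080, PTGER4 at chr20:33762479-33774648, PTGIS at chr13:78319020-78368752 and HPGD at chr8:6642818-6680546. FP-201 lay at chr3:66382018-66445648 and FP-202 at chr3:66383734-66445670. Which exon or untranslated part a probe matches was not analysed here.

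A level is given as the log2 processed signal minus the 75th percentile of the array, so that 0 is a signal brighter than that of most probes. Levels are compared between samples for the same gene, never between genes, because probes differ in brightness. A gene was above background on an array where any of its probes was marked so by the scanner software. Between 54.2% and 68.8% of probes were above background on 19 arrays and 49.4% on OO replicate 2, and no spot was saturated. Replicates 1 and 2 of TH, GC, CC and OO had been hybridized on one slide and replicates 3 and 4 on another, whereas all CC after IVM arrays were on a slide of their own. Markers matched the labels: the summed level of 5 theca markers was 8.72 to 9.38 in TH and at most 6.64 elsewhere, that of 7 oocyte markers was 7.96 to 8.37 in OO and at most 1.60 elsewhere, and that of 5 granulosa markers was lowest in OO (1.15 to 1.60) and next lowest in TH (4.18 to 5.06).

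The 4 cell types of the follicle differed in the levels of these prostaglandin genes. TH had the highest mean of PTGIS, HPGD and the receptors PTGER4 and PTGFR, GC and OO that of PTGS2, CC that of PTGES and OO that of PTGS1. The F-test over TH, GC, CC and OO passed for 8 of 8 members at an adjusted p under 0.05, against 71.3% of all genes, so this count is no more than most genes gave. PTGER2 passed although it was above background on at most 1 array of any group, and without genes that dim 7 of 7 passed against 90% of the genes kept. Over the 6 pairs of cell types, 36 of 48 comparisons passed. Between TH and GC, 4 members were higher and 2 lower in TH, where 26.3% of all genes passed (11.8% higher and 14.5% lower). Between TH and CC, 3 were higher and 2 lower in TH, against 31.8% of all genes (14.4% and 17.4%). Between GC and CC, 4 were higher and 2 lower in GC, against 9.89% of all genes (4.61% and 5.28%). Differences from OO were common over the whole array. TH against OO had 6 members higher and 2 lower, with 64.7% of all genes called (32.1% and 32.6%), GC against OO had 3 and 1, with 68.6% (37.9% and 30.7%), and CC against OO had 3 and 4, with 63.7% (32% and 31.7%). The median difference over the members was 1.33 for TH minus GC, 4.00 for TH minus OO and -1.09 for CC minus OO, beside -0.22, 0.42 and 0.40 over all genes. Pairs share their groups, so these counts are not independent. As samples are bulk RNA, fewer cells of a type and less RNA per cell cannot be told apart.

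**Figure D1:**
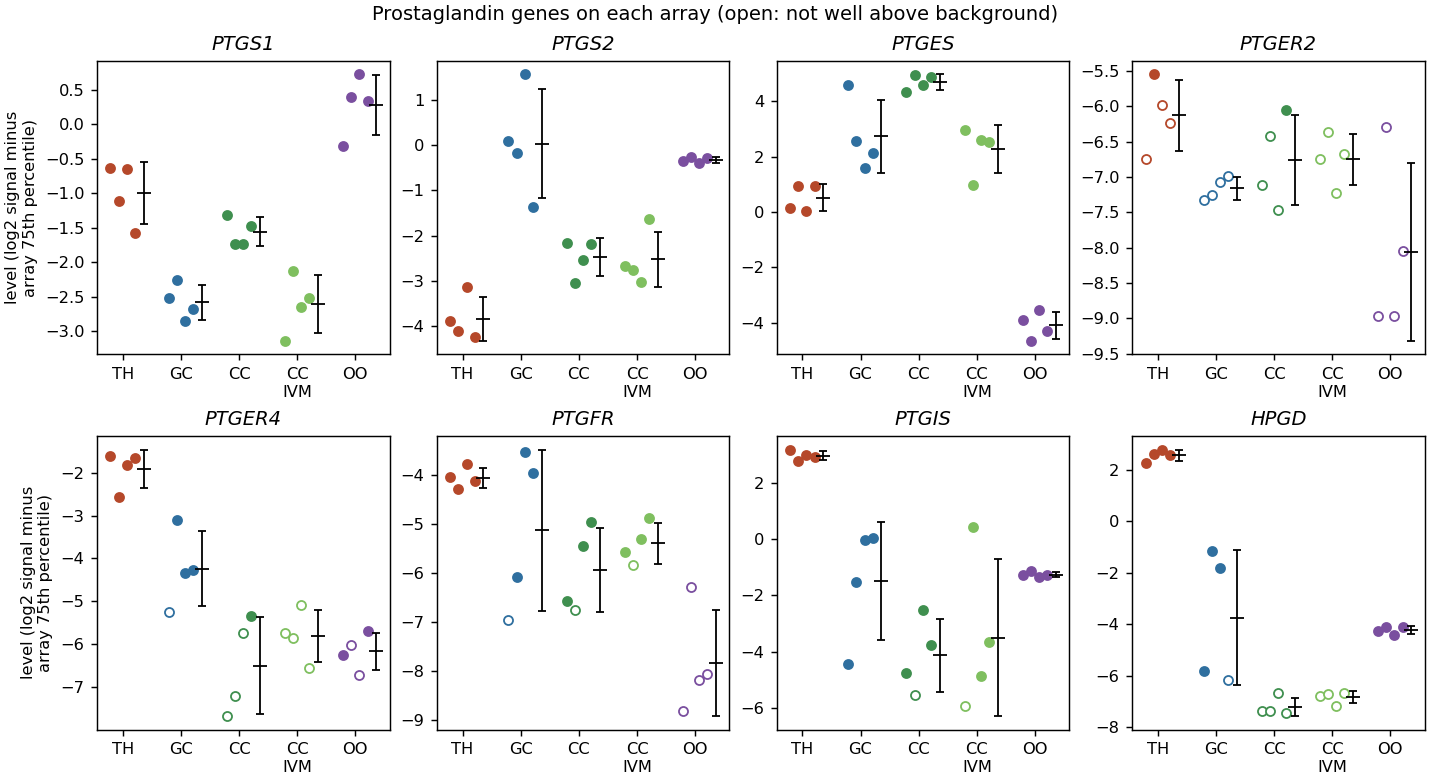
Level of each of the 8 genes on the 20 arrays (log2 signal minus the array's 75th percentile, with a separate axis range for each gene). Filled points were above background and open points were not, and bars give the mean and SD of 4 arrays. TH sits apart from every other group for PTGER4, PTGIS and HPGD, CC is highest for PTGES, and PTGER2 is open on all but 2 arrays.

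The cyclooxygenases had opposite patterns in TH and GC and were both high in OO. The level of PTGS1 was -0.31, 0.39, 0.72 and 0.33 in OO, -0.64, -1.11, -0.65 and -1.58 in TH, -1.31, -1.73, -1.73 and -1.47 in CC, and -2.51, -2.26, -2.85 and -2.68 in GC. Each OO array was above every array of the other cell types, and each GC array was below them. OO exceeded GC by 2.86 ± 0.25 (log2, SE), or 7.25-fold (adjusted p = 4.7e-08), and exceeded TH by 2.42-fold (adjusted p = 2.8e-04), though within slide 1 this last difference was 1.89-fold (adjusted p = 0.071) and within slide 2 it was 3.11-fold (adjusted p = 0.0057). The order was OO, TH, CC and GC, and the neighbours TH and CC overlapped (difference 0.57, adjusted p = 0.1; 0.023 without TH replicate 4). CC exceeded GC by 2.02-fold (adjusted p = 0.017), but the adjusted p was 0.058 without GC replicate 3, 0.055 without CC replicate 1 and 0.12 with normexp background correction, and within the slides the difference was 1.82-fold and 2.24-fold (adjusted p = 0.36 and 0.2).

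PTGS2 was highest in GC and OO and lowest in TH. Its level was 0.10, -0.17, 1.56 and -1.37 in GC, between -0.40 and -0.27 on the 4 OO arrays, -2.16, -3.05, -2.53 and -2.18 in CC, and -3.89, -4.10, -3.14 and -4.23 in TH. GC was the most variable group (0.03 ± 1.21, SD, n = 4) and OO the least (-0.33 ± 0.06), and the OO values lay inside the GC range. GC exceeded TH by 3.87 ± 0.45, or 14.6-fold (adjusted p = 1.0e-05), and OO exceeded TH by 11.4-fold (adjusted p = 3.9e-06), whereas GC and OO did not pass (0.36, 95% confidence interval -0.60 to 1.32, adjusted p = 0.47). Within the slides GC exceeded TH by 15.6-fold (adjusted p = 0.0036) and 13.7-fold (adjusted p = 0.037). GC exceeded CC by 5.70-fold (adjusted p = 0.0021), with 2.57 within slide 1 (adjusted p = 0.044) and 2.45 within slide 2 (adjusted p = 0.3). CC exceeded TH by 2.56-fold (adjusted p = 0.03). That call ended when TH replicate 1, 2 or 4 or CC replicate 1, 3 or 4 was left out (adjusted p = 0.055 to 0.08), with normexp background correction (0.13), with the percentile taken over probes above background on all arrays (0.077) and within slide 2 (0.39). OO exceeded CC by 4.44-fold (adjusted p = 5.4e-04), with 4.90-fold within slide 1 (adjusted p = 0.0019) and 4.03-fold within slide 2 (adjusted p = 0.077).

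PTGES, the prostaglandin E2 synthase, was highest in CC, followed by GC and TH, and was low in OO. The level was 4.33, 4.95, 4.60 and 4.88 in CC, 4.60, 2.57, 1.60 and 2.14 in GC, 0.13, 0.95, 0.03 and 0.92 in TH and between -4.67 and -3.56 in OO. All CC arrays were above every TH and OO array, and GC replicate 1 was the only GC array within the CC range. CC exceeded OO by 8.79 ± 0.49, or 442-fold (adjusted p = 2.5e-10), and TH by 18.1-fold (adjusted p = 7.3e-06), and within the slides CC exceeded TH by 17.1-fold (adjusted p = 0.014) and 19.2-fold (adjusted p = 7.8e-04). GC exceeded TH by 4.67-fold (adjusted p = 0.0031), or by 3.03-fold without GC replicate 1 (adjusted p = 0.0023), by 8.26-fold within slide 1 (adjusted p = 0.049) and by 2.64-fold within slide 2 (adjusted p = 0.073). CC exceeded GC by 3.89-fold (adjusted p = 0.019). Without GC replicate 1 this was 5.99-fold (adjusted p = 2.1e-04), and without GC replicate 2 or 3 or CC replicate 2 or 4 the adjusted p was 0.051 to 0.068. It was 2.07-fold within slide 1 (adjusted p = 0.64) and 7.29-fold within slide 2 (adjusted p = 0.023).

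PTGIS, the prostacyclin synthase, was highest in TH, with an intermediate level in OO. TH arrays had 3.18, 2.76, 2.97 and 2.93, and OO arrays lay between -1.36 and -1.15. GC arrays had -4.42, -1.54, -0.05 and 0.04 and CC arrays -4.74, -5.53, -2.52 and -3.75, of which CC replicate 2 was not above background. TH was above all other arrays, OO was above all CC arrays, and GC replicate 1 stood with CC while the other GC arrays did not. TH exceeded CC by 7.09 ± 0.79, or 137-fold (adjusted p = 4.3e-06), OO by 18.7-fold (adjusted p = 2.0e-04) and GC by 21.9-fold (adjusted p = 5.6e-04; 11.1-fold without GC replicate 1, adjusted p = 3.3e-04). Within the slides TH exceeded GC by 5.95 (adjusted p = 0.012) and 2.95 (adjusted p = 0.0041). OO exceeded CC by 7.30-fold (adjusted p = 0.0049), with 15.1-fold and 3.53-fold within the slides (adjusted p = 0.011 and 0.0059). GC and CC overlapped. Their difference of 2.64 (adjusted p = 0.048), one of the 36 calls, passed in 12 of 31 alternatives and missed when any of 13 arrays was left out (adjusted p = 0.056 to 0.16).

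HPGD, the enzyme that inactivates prostaglandins, was highest in TH. TH arrays had 2.27, 2.59, 2.78 and 2.56 and OO arrays -4.28, -4.13, -4.44 and -4.11, whereas GC arrays had -5.82, -1.18, -1.81 and -6.18. No CC array was above background (-7.38, -7.39, -6.68 and -7.44). TH stood above all others, and GC split into replicates 2 and 3, which were above OO, and replicates 1 and 4, which were below it. TH was at least 249-fold higher than CC (adjusted p = 3.3e-07), a bound set by the lowest signal marked above background on each CC array. The adjusted p beside this and later bounds is that of the measured difference and does not test the bound. TH was 111-fold higher than OO (6.79 ± 0.85, adjusted p = 3.2e-06). TH exceeded GC by 78.7-fold (adjusted p = 4.7e-05), and leaving out GC replicate 1, 2, 3 or 4 gave 48.8, 142, 123 and 44.8-fold. Within the slides TH exceeded GC by 5.93 (adjusted p = 0.044) and 6.67 (adjusted p = 0.016). The GC mean was at least 3.17-fold higher than CC (adjusted p = 0.017, with 0.061 without GC replicate 3 and 0.28 and 0.36 within the slides). The CC level used for this bound was -5.41, and GC replicates 1 and 4 (-5.82 and -6.18) lay below it. So the fold rests on GC replicates 2 and 3. It was at least 5.10-fold without GC replicate 1, 1.75-fold without replicate 2, 2.02-fold without replicate 3 and 5.56-fold without replicate 4. OO was at least 2.25-fold higher than CC (adjusted p = 0.0061; 0.097 and 0.079 within the slides), and with normexp background correction OO was 1.11-fold higher (adjusted p = 0.68).

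Summed markers of other cell types differed between the GC arrays. The summed level of 6 smooth muscle and pericyte markers was 3.17, 4.65, 4.51 and 3.30 on GC replicates 1 to 4, between 7.77 and 7.95 in TH and between 1.65 and 2.27 in CC. The 5 theca markers were at 4.69, 6.64, 6.43 and 5.01 on these GC arrays, and 3 to 5 of them were above background. The 6 endothelium markers were at -1.22, -0.09, 0.08 and 0.20 there, and 6 leukocyte markers at -1.77, -0.80, -0.63 and 0.58. HPGD in GC was high on replicates 2 and 3, as the smooth muscle and theca sums were, and lowest on replicate 4, where the endothelium and leukocyte sums were highest. PTGIS in GC was lowest on replicate 1, where all 4 sums were lowest, and highest on replicate 4, where the smooth muscle and theca sums were low. In OO the endothelium sum was 1.58 to 2.17 with 4 or 5 of 6 markers above background. Its highest OO means were those of TEK (1.33) and VWF (-0.59), with CLDN5 at -4.11 and KDR at -4.64. PECAM1 was above background on 1 OO array and CDH5 on 0. The smooth muscle sum in OO was 3.13 to 3.77, with CNN1 at a mean of 3.40 and ACTA2 at 0.08. TAGLN, DES and MYH11 had OO means of -4.95, -4.97 and -6.37, and RGS5 was above background on 0 OO arrays. The OO theca sum was -2.21 to -1.25, with 2 or 3 of 5 markers above background. INSL3 and COL1A2 were above background on all 4 OO arrays, COL1A1 on 2, and CYP17A1 and LHCGR on none. In TH all 6 smooth muscle markers and 5 or 6 of 6 endothelium markers were above background. Their part in the results was not tested. Without GC replicates 2 and 3, TH exceeded GC in PTGIS by 35.5-fold (adjusted p = 0.0019). For HPGD these are also the arrays with the highest level in GC, so leaving them out gives no test.

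**Figure D2:**
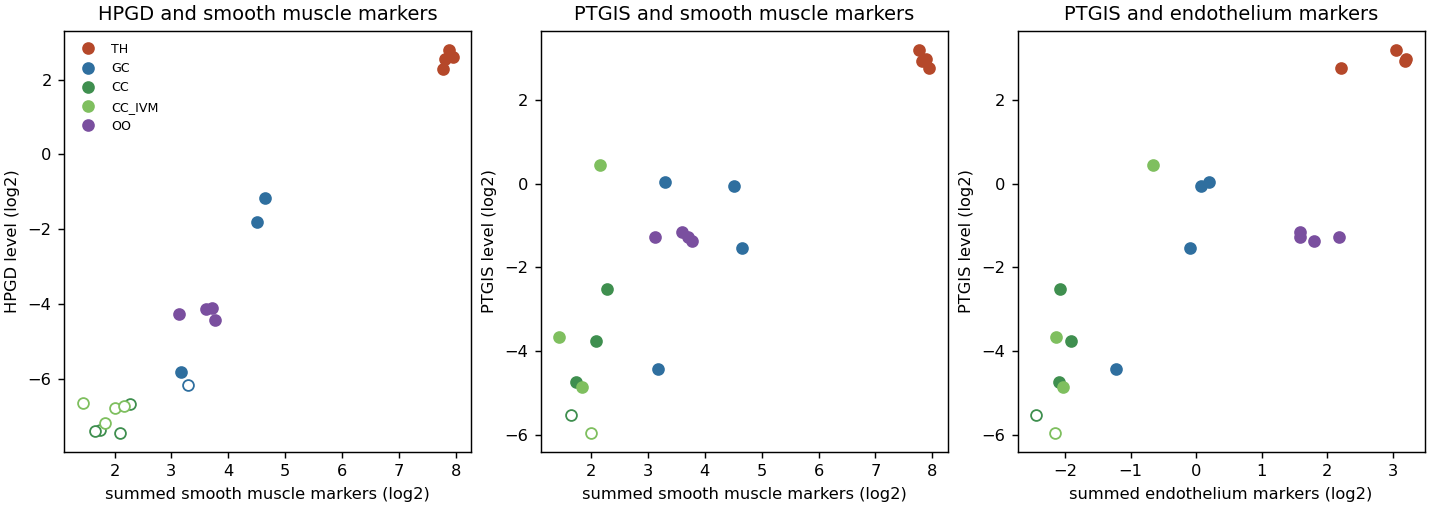
HPGD and PTGIS on each of the 20 arrays (vertical axes, log2 level) against the summed level of 6 smooth muscle and pericyte markers or 6 endothelium markers on the same array (horizontal axes, log2). Open points were not above background. GC replicates 2 and 3 sit at 4.65 and 4.51 of the smooth muscle sum with HPGD at -1.18 and -1.81, and CC after IVM replicate 2 sits apart from its group in PTGIS (0.44) and in the endothelium sum (-0.66).

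Of the receptors, PTGER4 and PTGFR had their highest mean in TH, and PTGER2 was close to background in all cells. PTGER4 had -1.60, -2.57, -1.81 and -1.66 in TH and -5.26, -3.11, -4.33 and -4.26 in GC, with 3 of 4 GC arrays above background, against 1 of 4 CC arrays (-6.50 ± 1.13) and 2 of 4 OO arrays (-6.17 ± 0.44). TH was above all other arrays, and GC was above all CC and OO arrays. TH exceeded GC by 5.04-fold (adjusted p = 0.0028) and OO, where 2 of 4 arrays were not above background, by 19.2-fold (adjusted p = 1.8e-06). Within the slides TH exceeded GC by 2.10 (adjusted p = 0.14) and 2.56 (adjusted p = 0.0055). On the brighter probe alone TH minus GC was 2.13 (adjusted p = 0.067). GC minus CC was 2.26 (adjusted p = 0.01; 0.12 and 0.19 within the slides), with 3 of 4 CC arrays not above background, and on the brighter probe alone it was 1.91 (adjusted p = 0.17). CC and OO did not pass (adjusted p = 0.57).

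PTGFR, the prostaglandin F2 alpha receptor, gave a signal through FP-202 only. The FP-201 probes were above background on 1 of 20 arrays for probe 1 and on no array for probe 2. Over all 4 probes PTGFR was at -4.04, -4.27, -3.77 and -4.12 in TH and above background on 3 GC, 3 CC and no OO arrays, and TH was at least 3.61-fold higher than OO (adjusted p = 1.8e-04). From the FP-202 probes alone, an alternative chosen after seeing the data, the level was -2.14, -1.98, -2.28 and -2.38 in TH, -6.95, -5.37, -2.40 and -2.60 in GC, and -5.03, -5.61, -4.53 and -3.98 in CC. TH was above all CC arrays on these probes, and GC replicates 3 and 4 came close to TH while replicates 1 and 2 stood within or below the CC range. TH then exceeded CC by 2.59 ± 0.82 (adjusted p = 0.024), where all 4 probes gave 1.88 (adjusted p = 0.053, and a call in 18 of 31 alternatives), and TH and GC did not pass in either case (adjusted p = 0.071 and 0.31). PTGER2 had its highest mean in TH (-6.13 ± 0.50) and its lowest in OO (-8.06 ± 1.26), but it was above background on 1 TH and 1 CC array only, so no fold is given.

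Where the probes of a member did not overlap, they gave the same order of the 4 cell types at different brightness. The PTGS2 probes lay 3.51 apart on average (Pearson r = 0.98 over the 20 arrays, a description), and probe 1 was above background on 1 of 4 TH arrays where probe 2 was on 4. In GC, probe 1 read -1.66 ± 1.22 and probe 2 read 1.72 ± 1.19, both with replicate 3 highest. The HPGD probes lay 2.16 apart (r = 0.95), and in OO probe 1 was above background on 4 arrays (-2.34 ± 0.32) and probe 2 on 2 (-6.14 ± 0.14). The PTGES probes, with their mismatch, lay 0.66 apart (r = 1.00).

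**Figure D3:**
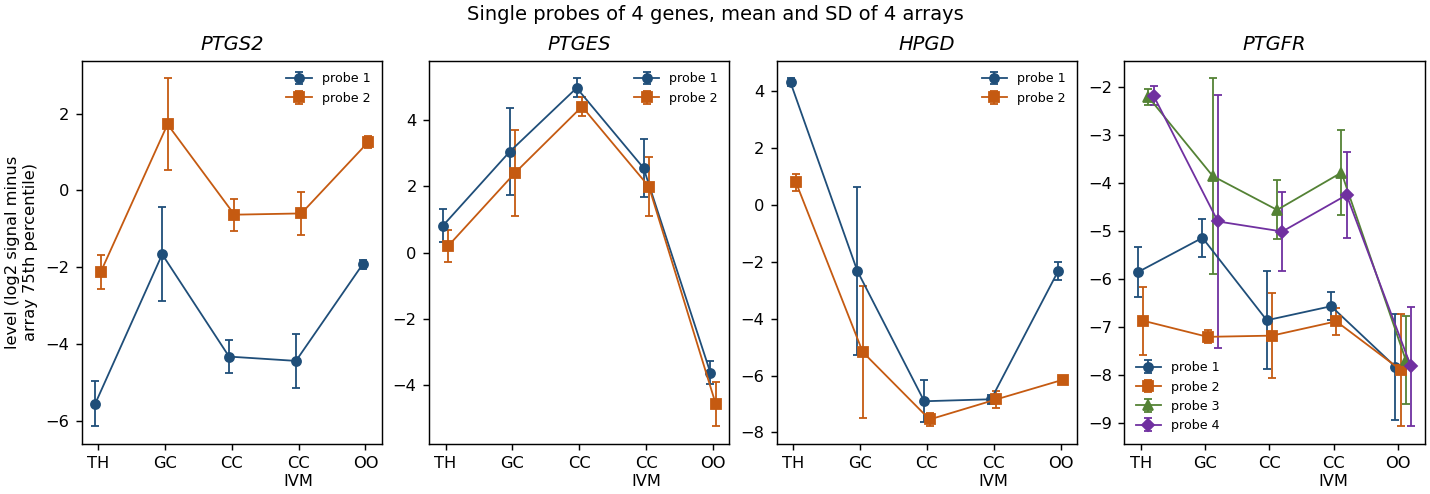
Level of single probes of PTGS2, PTGES, HPGD and PTGFR in the 5 groups (vertical axis, log2 signal minus the array's 75th percentile; points and bars give the mean and SD of 4 arrays). Probes 1 and 2 of PTGFR belong to FP-201 and stay below -5 in every group, while probes 3 and 4 belong to FP-202 and reach -2.21 and -2.18 in TH.

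During 4 h of IVM, PTGES and PTGS1 fell in CC, and PTGS2 showed no detectable change. Of the 8 members, 2 were lower and 0 were higher in CC after IVM than in CC, against 45.9% of all genes called in either direction (15.6% lower and 30.3% higher). Of the 6 members that were not called, 0 had an unadjusted p under 0.05 in limma. Over all genes the median difference was 0.37, beside -0.01 over genes above background on every array, so dim genes shifted upward in this comparison. PTGES was at 2.97, 0.98, 2.61 and 2.54 after IVM, all below the CC range of 4.33 to 4.95. It fell by 2.42 ± 0.40, or 5.33-fold (95% confidence interval -3.31 to -1.52, adjusted p = 0.0014). PTGS1 was at -3.14, -2.12, -2.65 and -2.51 after IVM, below the CC range of -1.73 to -1.31, and it fell by 1.04 ± 0.24, or 2.06-fold (adjusted p = 0.0088). Both calls held in all 20 alternatives run, with differences of -2.84 to -1.98 for PTGES and -1.20 to -0.47 for PTGS1. Slide as a block was among them but left both differences unchanged, so it gave no test of slide. Slide and maturation cannot be told apart in this comparison, because no CC array shared a slide with CC after IVM. Marker sums also differed: the oocyte sum was -0.80 to 1.60 in CC and -2.50 to -0.74 after IVM, with PTGS1 highest in OO. The granulosa sum was 8.58 to 8.62 in CC and 9.29 to 9.59 after IVM. In that list only INHBA had a higher mean after IVM (8.32 in CC and 9.39 after). FSHR, CYP19A1, AMH (5.97 and 4.93) and FOXL2 had lower means after IVM. The leukocyte sum was -2.16 to -0.39 in CC and -0.18 to 1.17 after IVM. In that list the means in CC and after IVM were -2.89 and -0.73 for CD68 and -3.90 and -1.57 for CD14. They were -4.83 and -3.36 for AIF1 and -3.25 and -2.91 for CSF1R. PTPRC was above background on 0 arrays of either group, and CD163 on 1 CC array and 0 arrays after IVM. The part of these marker differences in the results was not tested.

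PTGS2, the inducible cyclooxygenase, was at -2.67, -2.76, -3.02 and -1.63 after IVM, overlapping CC. The difference was -0.04 with a 95% confidence interval of -0.78 to 0.70 (adjusted p = 0.93). PTGIS was at -5.94, 0.44, -4.86 and -3.65, and replicate 2 stood far above the rest of its group, so that the interval ran from -2.10 to 3.36. On that array the 6 endothelium markers summed to -0.66, against -2.15 to -2.03 on the other CC after IVM arrays, with 5 of 6 markers above background against 2 or 3. The leukocyte sum was 1.17 there and -0.18 to 0.64 on the others, and their part in the PTGIS value was not tested. PTGER2, PTGER4 and HPGD were above background on no CC after IVM array and on at most 1 CC array. With normexp background correction and in the deposited table, which subtracts no background, these and PTGFR were called higher by 0.36 to 0.68 (log2). HPGD was also called with slide as a block (0.39, adjusted p = 0.041), a setting that cannot separate slide from maturation here. PTGFR was above background on 3 of 4 arrays in both groups and its difference was 0.54 (adjusted p = 0.3).

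**Figure D4:**
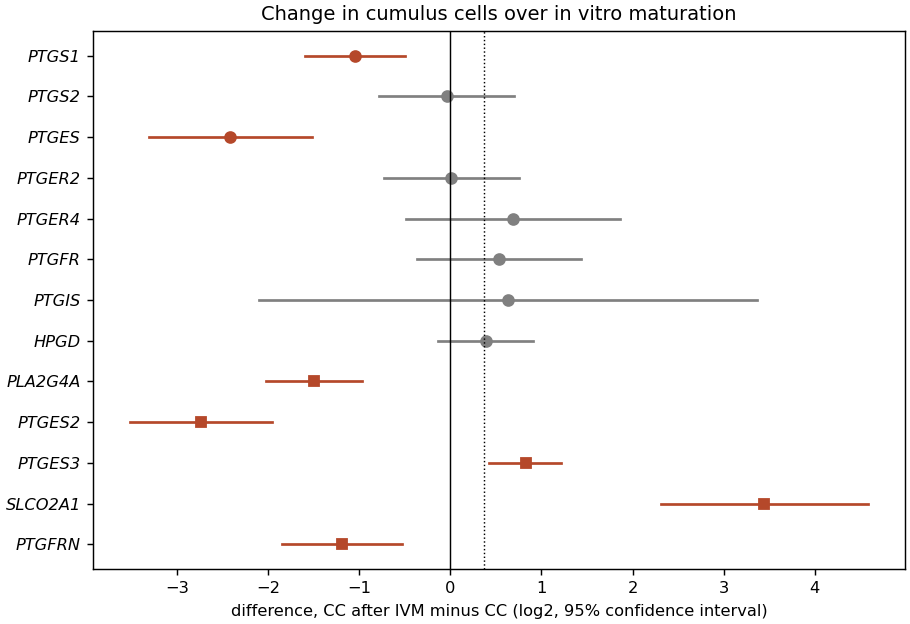
Difference between CC after IVM and CC (horizontal axis, log2, with 95% confidence intervals) for the 8 members (circles) and for the 5 other pathway genes above background that passed the test (squares). Red marks an adjusted p under 0.05, the solid line is 0 and the dotted line is the median of all genes (0.37). PTGES and PTGS1 lie to the left of both lines, and SLCO2A1, drawn at its measured difference, is a lower bound in the text because CC was not above background.

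In the order of all 5 groups, CC after IVM had the third highest mean of PTGES and the lowest mean of PTGS1, where it overlapped GC. Of the 24 comparisons of CC after IVM with TH, GC and OO, 15 passed: 2 higher and 4 lower against TH (43.7% of all genes, 25.2% and 18.5%), 0 higher and 3 lower against GC (28.1%, 13.9% and 14.3%) and 3 higher and 3 lower against OO (80.2%, 49.8% and 30.4%). For PTGES, CC after IVM did not pass against GC (difference -0.46, 95% confidence interval -1.53 to 0.62) and was 3.40-fold higher than TH (adjusted p = 0.0088). For PTGS1 it did not pass against GC either (-0.03, interval -0.58 to 0.52) and was 3.05-fold lower than TH (adjusted p = 5.4e-05). For PTGS2 it was 5.85-fold lower than GC (adjusted p = 1.8e-04). For PTGIS it was 88.3-fold lower than TH (adjusted p = 5.9e-05), or 220-fold without CC after IVM replicate 2 and 50.3-fold without replicate 1. TH was at least 157-fold higher in HPGD and at least 7.11-fold higher in PTGER4. These comparisons also span slides.

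Among other genes of the pathway, 28 of 31 listed genes were on the array, and 21 of 28 passed the F-test over the cell types (71.3% of all genes). Of the 21, the highest mean was in TH for 6, in GC for 4, in CC for 6 and in OO for 5. The 15 genes whose means differed by at least 2 (log2) fell into groups by role. Among synthases, PTGES2, a second prostaglandin E synthase, was higher in CC than in OO by 19.5-fold (adjusted p = 7.0e-08) and than in TH by 5.07-fold (adjusted p = 2.0e-04), as PTGES was, and the ubiquitous PTGES3 (also the chaperone p23) was higher in CC than in OO by 4.05-fold. PRXL2B, a prostamide and prostaglandin F synthase, was higher in CC than in OO by 25.2-fold, and the prostaglandin F synthase AKR1B1 was higher in OO than in TH by 4.43-fold. PTGDS, the prostaglandin D2 synthase, was at 2.21 ± 1.05 in TH and 1.61 ± 0.23 in CC and above background on 2 of 4 OO arrays. The thromboxane synthase TBXAS1 was higher in TH than in GC by 5.40-fold (adjusted p = 6.3e-04), and AKR1C4 in TH was at least 11.1-fold higher than in CC.

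Among receptors and transporters, the highest mean was in TH for PTGDR, TBXA2R and SLCO2A1 and in CC for PTGIR. The share of all genes with their highest mean in TH was not counted, so this is a description. PTGDR, a prostaglandin D2 receptor, was at least 14.9-fold higher in TH than in CC, and above background on no GC, CC or OO array. The thromboxane receptor TBXA2R was high in TH (-2.42 ± 0.26) and OO (-2.60 ± 0.22) and above background on 1 GC and 2 CC arrays. TH and OO did not pass for it (difference 0.18, adjusted p = 0.7). The prostacyclin receptor PTGIR was at -4.16 ± 0.26 in GC and -3.75 ± 0.27 in CC and above background on 1 of 4 TH arrays (CC against TH, adjusted p = 3.4e-06). The prostaglandin transporter SLCO2A1 was at least 25.5-fold higher in TH than in CC. PTGR1, a reductase of prostaglandin breakdown, was 447-fold higher in GC than in OO (adjusted p = 5.8e-13), and PTGFRN, a membrane partner of PTGFR, was 27.9-fold higher in CC than in OO and 7.64-fold higher than in TH. The phospholipases PLA2G4D and PLA2G10 were above background on at least 3 arrays in OO alone and in GC alone.

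**Figure D5:**
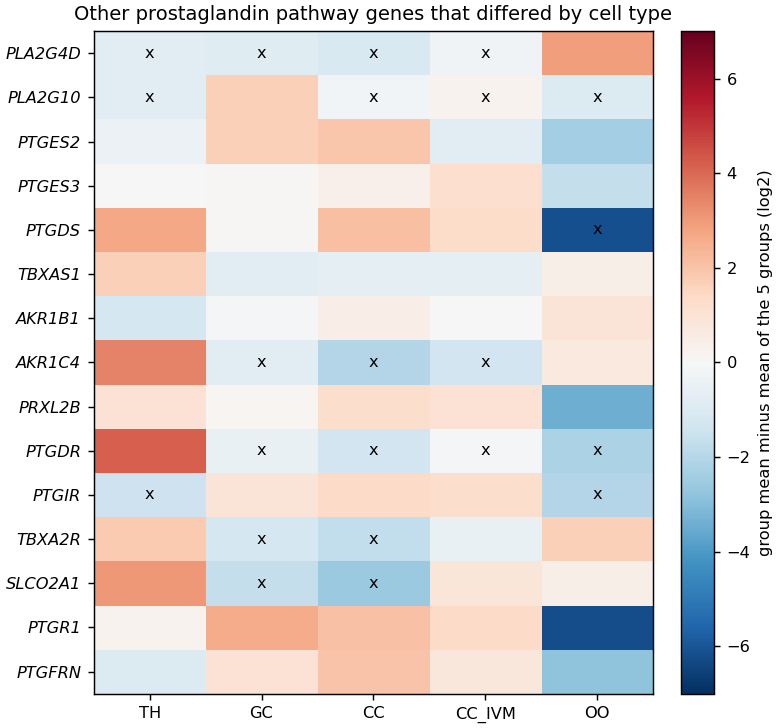
Group means of the 15 other pathway genes that passed the F-test and differed by at least 2 (log2) between cell types, each minus the mean of its own 5 group means (color, log2). A cross marks a group with fewer than 3 of 4 arrays above background. TH is the highest column for PTGDR, AKR1C4 and SLCO2A1, and OO the lowest for PTGR1 and PTGDS.

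After IVM, 12 of the 28 other pathway genes passed, 9 higher and 3 lower (45.9% of all genes), but 7 of them were above background on fewer than 3 arrays of both groups. These 7 were PLA2G4D, PLA2G4E, PLA2G4F, HPGDS, AKR1C4, PTGER3 and PTGDR, all higher by 0.69 to 1.22, and no level is drawn from them. The other 5, 2 higher and 3 lower, were among 15 pathway genes above background on at least 3 arrays of either group. In a fit of all genes kept by that rule, 45.8% passed (22.1% higher and 23.7% lower). Of these 5 pathway genes, SLCO2A1 was at -3.45, -1.81, -3.85 and -2.74 after IVM and not above background in CC. It was at least 5.46-fold higher (adjusted p = 7.3e-04). PTGES3 was higher by 1.77-fold (0.83 ± 0.18, adjusted p = 0.0058). PTGES2 was 6.64-fold lower (-2.73 ± 0.35, adjusted p = 3.1e-04), PTGFRN 2.28-fold lower (adjusted p = 0.012) and PLA2G4A, the phospholipase that frees arachidonic acid, 2.82-fold lower (adjusted p = 0.0011). In those 5 genes the call held in all 19 alternatives, of which slide as a block gave no test of slide. Of the prostaglandin E synthases, PTGES and PTGES2 fell and PTGES3 rose. Slide and maturation cannot be told apart here either.

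The genes most like each member in pattern were taken by Pearson correlation over the 20 arrays among 15099 named genes, as a description in which groups make most of the spread. HPGD was most like COL15A1 (r = 0.991), CXCL14 (0.989) and GATA5 (0.983), and PTGIS most like FN1 (0.963), VAT1 (0.945) and ME3 (0.937). PTGES was most like TMEM63A (0.984), ADPGK (0.977) and RASL11B (0.975). PTGS1 was most like SLC16A13 (0.947), LLGL2 (0.943) and GSE1 (0.937), while PTGS2 had the lowest best match, with MAPKBP1 (0.882), SEMA3A (0.863) and NUDT11 (0.855). Among receptors, PTGER4 was most like PYROXD2 (0.951), XDH (0.950) and AQP1 (0.949), and PTGFR most like LCK (0.917), NCAM1 (0.906) and CTSK (0.905).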

How the data were processed

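Samples were grouped by their titles. For each array the authors deposited Feature Extraction 10.7.3.1 output, holding intensity per spot (median, mean and processed signal after background subtraction, not normalized between arrays), with probes on UMD 3.1. The authors also deposited log2 values; set against the scanner values, each column was log2 median signal minus the array median (within 1.0e-08). Without control and outlier spots, log2 processed signals were scaled by the array's 75th percentile over 61325 probes, and the median over the probes of a gene was taken. No pseudocount was added. Of these probes, 31083 were named by RefSeq accession, 21281 by the files and 8961 by transcript only. The tests were those of limma 3.58.1 (moderated linear models; R 4.3.3 with the package data-table, version 1.17.8), with Benjamini–Hochberg adjustment over 22617 genes at 0.05: 16 arrays for the cell types, 8 for IVM against CC, 20 for IVM against TH, GC and OO. Replicate numbers were taken to pair TH with GC, from the data and not the labels: all 4 same-numbered pairs correlated in their deviations from group means (r of 0.20 to 0.45), while no other pair of groups had all 4 above 0.1. The code was checked on simulated data. Reading and plotting used Python 3.11.15, pandas 2.3.3, numpy 2.4.6 and matplotlib 3.10.9. Where no array of a group was above background a bound is given: the brighter mean over, per dim array, the higher of its lowest signal above background and its own value. Text names all 8 members, pathway genes past the F-test with means at least 2 (log2) apart or past the IVM test, and the 3 genes most like each member above background. The members and lists were chosen with earlier results of these data known. Alternatives were other normalizations (quantile, median, percentile over probes above background on all arrays, normexp with offset 50, deposited values), mean or brightest probe, a filter on dim genes, slide or replicate block, arrayWeights, all 20 arrays, the methods' analysis of variance, single slides and each array left out. PLA2G2A, PLA2G4C and ABCC4 were not matched. The number of arrays limits the precision.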

Additional observations from a re-analysis of the deposited data

Results flagged for a closer look

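Within each group of 4 arrays, the level of each member was screened for an array whose gap to its nearest neighbour was above Dixon's 95% critical value relative to the group's range. Of 40 member and group combinations, 1 was past this, where chance gives about 1 in 20. HPGD on CC replicate 3 was at -6.68 while the other 3 CC arrays were at -7.44 to -7.38, and none of the 4 was above background.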

How the results depend on the processing

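All 8 members kept the F-test call in most settings, and PTGER2 alone lost it: without OO replicate 1 or 3 and within slide 1, where 7 members passed, and with only genes above background, where PTGER2 was not tested. The methods' analysis of variance called 8. Leaving out arrays gave 7 to 8 members for the F-test, 32 to 39 calls over the pairs, 13 to 17 for CC after IVM against TH, GC and OO, 2 to 2 for CC after IVM against CC, 6 to 7 for TH against GC, 19 to 25 other pathway genes by the F-test and 7 to 13 after IVM (7 without CC replicate 1). Within slide 1 the pairs gave 23 calls, with 2 arrays per group. After IVM, normexp background correction and the deposited values each called 6 members in place of 2, and 23 and 22 other pathway genes in place of 12, whereas quantile normalization called 7 and only genes above background 5; in that comparison the share of calls that were higher was 66% in all, 43.2% with quantile normalization and 83.3% with normexp. Against OO, normexp moved that share from 49.7% to 72.8% (TH), 55.3% to 75.2% (GC) and 50.2% to 73.9% (CC). Without GC replicates 2 and 3, chosen after seeing the data, 33 pair calls passed. Replicate numbers paired TH with GC only. For TH against GC the replicate block called 6 members as before, and an added fit of these 8 arrays alone called 7 with the block and 7 without it, PTGER2 being the addition (adjusted p = 0.024 and 0.017). With the replicate block, 8 members passed the F-test, 37 pair calls, 2 members after IVM, 15 calls of CC after IVM against TH, GC and OO, 22 other pathway genes by the F-test and 9 after IVM. With slide as a block there were 37 pair calls. A value within slides could not be had for CC after IVM against CC, which share no slide. Of 406 single-gene values, 394 kept their call, 9 gained a call, 3 lost one (PTGER2) and 0 reversed. A reversal was a change of sign with a call in either setting, and changes of sign without a call were counted as kept. In CC after IVM minus CC, the sign held in 12 of 20 alternatives for PTGS2 and 12 of 19 for PTGER2. It held in 19 of 20 for PTGIS and 18 of 19 for HPGD. Of the pair comparisons outside these values, 5 that were called in either setting changed sign. With normexp, HPGD in CC after IVM minus OO went from -2.60 to 0.50 (adjusted p = 0.14), PTGER4 in CC minus OO from -0.33 to 1.13 (2.2e-05) and PTGER2 in CC after IVM minus TH from -0.63 to 0.49 (0.025). Within slide 2, PTGIS in GC minus OO went from -0.23 to 1.31 (adjusted p = 0.019). Without GC replicates 2 and 3, HPGD in GC minus OO went from 0.49 to -1.76, a direction that the choice of arrays fixed. The causes were not tested. Dim genes are limited by signal over background, with a floor that differed between groups.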
